A study of Homo sapiens with 8 samples.

Results

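The prostate kallikreins examined here are KLK1, KLK2, KLK3, KLK4 and KLK15, 5 genes at one end of the kallikrein locus on human chromosome 19. They were chosen by name, and all 5 were found among the 26443 genes that carry values in the deposited expression table. Of the 5, 4 had a mean of at least 1 FPKM (fragments per kilobase of gene, scaled to the library's total) over the 8 libraries and were tested. KLK1, with a mean of 0.526 FPKM, was under that filter and is described by its fragments.

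Kallikreins are secreted serine proteases. They are made as inactive proenzymes and are switched on when another protease removes a short propeptide. In the prostate epithelium KLK3 (prostate-specific antigen, PSA) and KLK2 are textbook androgen-induced genes, with androgen response elements in their promoters and distant enhancers. The KLK3 protein liquefies semen by cutting semenogelins, and serum PSA is used to follow prostate cancer.

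The cells were C4-2B, a castration-resistant line derived from LNCaP prostate cancer cells, cultured in medium with 10% serum. Treatment lasted 7 days and was ENZ at 10 uM, EPZ6438 at 1 uM (the EPZ group), both agents (the Combination group) or the vehicle DMSO. ENZ is the usual short form of enzalutamide, an antiandrogen, and EPZ6438 (tazemetostat) inhibits the histone methyltransferase EZH2. The labels give no separate doses for Combination. Each group had 2 libraries of this 1 line. Nothing in the labels says that these were grown separately. The p-values here rest on the spread between libraries of the same group, pooled over all groups and moderated across all tested genes. That spread may be technical, and the p-values speak for nothing beyond it.

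Depth, read from the steps between low FPKM values, was about 19300000 and 21800000 fragments in ENZ, 24400000 and 22300000 in EPZ, 19300000 and 16400000 in Combination and 15400000 and 20300000 in DMSO. All 7 luminal prostate markers had a mean of at least 1 FPKM, and their summed level was 567 to 577 FPKM in ENZ, 957 to 978 in EPZ, 572 to 584 in Combination and 676 to 678 in DMSO. The order of these sums is close to that of the kallikrein levels below. The 3 basal markers summed to at most 0.184 FPKM in any library, the 3 endothelial ones to at most 0.857 and the 3 neuroendocrine ones to at most 1.33. The 3 fibroblast markers summed to 3.58 to 4.62 FPKM in ENZ, 2.91 to 3.004 in EPZ, 10.6 in both Combination libraries and 2.38 to 2.59 in DMSO, nearly all COL1A1, with COL1A2 listed at 0. The 3 leukocyte markers summed to 6.46 to 6.92 FPKM in ENZ, 10.3 in both EPZ libraries, 11.02 to 12.1 in Combination and 7.06 to 7.38 in DMSO, nearly all CD68, with CD3E listed at 0. The part of these markers in the results was not tested. Among 11874 tested genes the median log2 change was -0.15 for Combination against DMSO and against ENZ, -0.11 for Combination against EPZ and -0.12 for the interaction, and within 0.0123 of 0 for each of these after median-of-ratios scaling. These were bulk samples, in which fewer cells making a transcript and less of it per cell cannot be told apart.

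The promoters of KLK3 and KLK2 are shown because both genes are known to be androgen-induced and because their promoters were the most alike among the members. The windows run from 250 bases before to 50 bases after the gene start, as given by RefSeq on GRCh38.p14, at chr19:50854665-50854964 for KLK3 and chr19:50873189-50873488 for KLK2, both on the plus strand. Sequences are written 5′ to 3′. Capitals mark the 15-base stretch with the fewest mismatches to the palindromic androgen response element, the half-site AGAACA, then NNN (3 free bases), then TGTTCT, searched on both strands, on which it reads the same.
KLK3: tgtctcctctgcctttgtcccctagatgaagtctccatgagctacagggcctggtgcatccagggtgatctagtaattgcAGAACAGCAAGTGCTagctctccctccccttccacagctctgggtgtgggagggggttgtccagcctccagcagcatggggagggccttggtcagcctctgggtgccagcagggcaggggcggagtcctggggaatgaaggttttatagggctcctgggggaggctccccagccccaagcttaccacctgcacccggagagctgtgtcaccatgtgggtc
KLK2: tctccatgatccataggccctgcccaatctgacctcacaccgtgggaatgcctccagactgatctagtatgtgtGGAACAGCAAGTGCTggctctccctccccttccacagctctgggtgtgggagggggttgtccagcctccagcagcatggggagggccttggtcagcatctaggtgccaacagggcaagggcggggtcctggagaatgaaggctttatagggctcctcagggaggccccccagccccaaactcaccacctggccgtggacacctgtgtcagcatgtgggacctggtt
The marked stretch of KLK3 starts 170 bases before the gene start, at chr19:50854745-50854759, and differs from the motif at 2 of its 12 fixed letters. Of 35116 RefSeq promoter windows of the same length, 1.41% hold a stretch with at most 2 mismatches. The marked stretch of KLK2 starts 176 bases before the gene start, at chr19:50873263-50873277, and differs at 3 letters. At most 3 mismatches are found in 10.8% of windows. With positions counted from the 5′ end of the stretch and the KLK3 base first, the pair differ by A1G. The 2 promoters were identical at 236 of 269 aligned bases, or 87.7%, against 54.2% to 64.5% for the other pairs of member promoters. KLK4 and KLK15 have 2 windows each, and no stretch in them had fewer than 5 mismatches. A match of letters is a description and does not show that a factor binds there. KLK1 has no window in the table.

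KLK3 encodes prostate-specific antigen. Its level was 225 and 223 FPKM in the ENZ libraries, 2800.4 and 2803 FPKM in the EPZ libraries, 383 and 400.2 FPKM in the Combination libraries, and 978 and 1015 FPKM in the DMSO libraries. No libraries of different groups overlapped, and both EPZ libraries stood highest and both ENZ libraries lowest. How many of all tested genes separate by group in this way was not counted. Of all tested genes, 50.6% to 80.8% were called either way in the pairwise comparisons below. In both EPZ libraries KLK3 was the gene with the highest FPKM of the table and held 0.969% and 0.945% of the summed FPKM. Its rank by level was 107 and 99 in the ENZ libraries, 36 in both Combination libraries, and 18 and 16 in the DMSO libraries. These levels rest on 8253 to 130289 fragments a library.

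KLK2 encodes human glandular kallikrein, a trypsin-like protease that can activate the KLK3 proenzyme. It stood at 6.46 and 5.97 FPKM in ENZ, 299 and 308 FPKM in EPZ, 29.5 and 27.1 FPKM in Combination, and 72.0 and 80.1 FPKM in DMSO. The groups again did not overlap, and their order was that of KLK3. KLK2 ranked 7385 and 7685 by level in the ENZ libraries and 83 and 84 in the EPZ libraries, against 881 and 731 in the DMSO libraries. The ENZ libraries held 368 and 385 fragments of KLK2, and the DMSO libraries 3284 and 4810.

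KLK4, also called prostase, is a trypsin-like member that is known outside the prostate for its part in enamel formation. Its level was 30.8 and 29.5 FPKM in ENZ, 132.4 and 131.9 FPKM in EPZ, 46.0 and 47.0 FPKM in Combination, and 76.1 and 80.4 FPKM in DMSO. The order of the groups was that of KLK3 and KLK2, with no overlap and a narrower range. In the order ENZ, Combination, DMSO, EPZ, each step up passed the test given below for KLK3, KLK2 and KLK4. The KLK4 step between Combination and DMSO did not pass after quantile normalization. Of all tested genes, 25.3% were called higher in Combination than in ENZ, 47.4% lower in Combination than in DMSO and 23.4% higher in EPZ than in DMSO. How many pass every step was not counted.

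KLK15, whose protein can also activate the KLK3 proenzyme, was expressed at a low level. It stood at 0.872 and 0.911 FPKM in ENZ, 5.29 and 6.23 FPKM in EPZ, 0.872 and 1.63 FPKM in Combination, and 3.67 and 3.58 FPKM in DMSO. The EPZ libraries lay above the DMSO libraries and both lay above the rest, but the ENZ and Combination libraries overlapped. The ENZ libraries held 22 and 26 fragments, the EPZ libraries 169 and 182, the Combination libraries 22 and 35, and the DMSO libraries 74 and 95. RefSeq places a long noncoding RNA, LOC105372441, across the start of KLK15 on the other strand. Its level was 0 and 0.0991 FPKM in ENZ, 0.885 and 1.64 in EPZ, 0 and 0.132 in Combination, and 1.40 and 1.28 in DMSO. The sources used here do not say whether counting used strand, and reads of the pair cannot be told apart.

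KLK1, tissue kallikrein, releases kinins and is best known from pancreas, kidney and salivary gland. It was listed at 0.296 and 0 FPKM in ENZ, 0.748 and 0.920 in EPZ, 0.237 and 0.0698 in Combination, and 1.04 and 0.900 in DMSO. Both ENZ and both Combination libraries lay below all EPZ and DMSO libraries. Summed over the group, 5 fragments were recovered in ENZ, 34 in EPZ, 5 in Combination and 30 in DMSO. The depth-corrected ratio of ENZ to DMSO was 0.145, with an exact 95% interval of 0.0439 to 0.377, that of Combination to DMSO was 0.167 (0.0506 to 0.435) and that of EPZ to DMSO was 0.866 (0.514 to 1.47). The intervals cover counting error only. In the fit without a filter KLK1 changed by -0.79 (SE 0.138, adjusted p = 0.0076) for ENZ against DMSO and by -0.77 (SE 0.138, adjusted p = 0.00338) for Combination against DMSO. It did not pass for EPZ against DMSO (-0.10, adjusted p = 0.667), the comparison in which the 4 other members were higher. The difference between KLK1 and the other members was not tested.

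**Figure D1:**
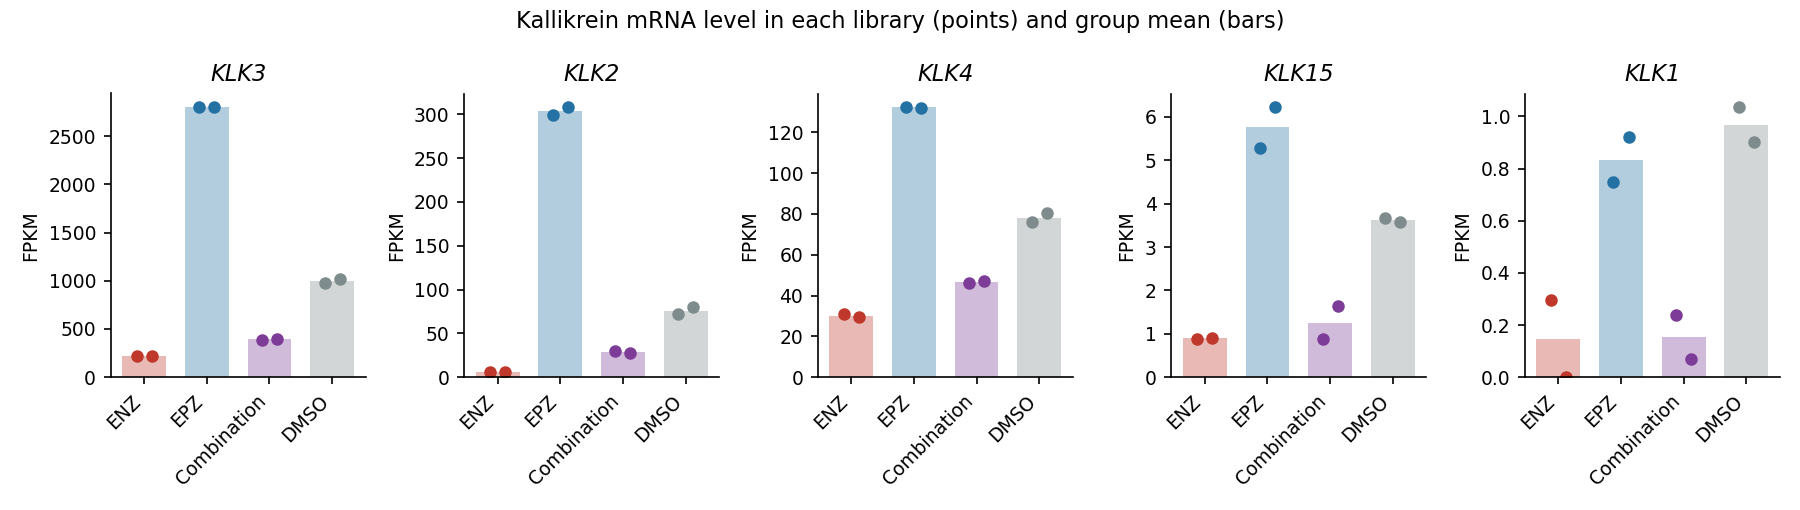
Level in FPKM of KLK3, KLK2, KLK4, KLK15 and KLK1 in every library (points) with the group mean (bars), on a separate linear axis for each gene, for ENZ, EPZ, Combination and DMSO. KLK3, KLK2 and KLK4 share one order of the groups, with EPZ highest and ENZ lowest, while the KLK15 points of ENZ and Combination overlap and KLK1 has EPZ points (0.748 and 0.920 FPKM) beside those of DMSO (1.04 and 0.900 FPKM).

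Changes below are differences on the log2(FPKM + 1) scale, tested with limma over 11874 genes, with Benjamini-Hochberg adjusted p-values and a threshold of 0.05. This scale understates changes of low genes such as KLK15. The comparisons share libraries, the DMSO libraries above all, so their results are not independent.

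ENZ against DMSO addresses the antiandrogen alone. All 4 tested members fell, where 28.8% of all tested genes were called lower, 27.9% higher and 56.7% either way. KLK2 averaged 6.21 ± 0.342 FPKM in ENZ and 76.1 ± 5.76 FPKM in DMSO (SD, n = 2 each), a 12.2-fold lower level and a log2 change of -3.42 (SE 0.0705, adjusted p = 1.91e-09). It was the third lowest change, rank 3 of 11874. KLK3 averaged 224 ± 1.24 FPKM in ENZ and 996 ± 26.3 FPKM in DMSO, 22.5% of the DMSO level, a change of -2.15 (SE 0.0473, adjusted p = 2.56e-09) and rank 26 from the lowest. KLK4 changed by -1.35 (SE 0.0533, adjusted p = 9.63e-08) to 38.6% of the DMSO level. KLK15 changed by -1.29 (SE 0.144, adjusted p = 7.11e-05) to 24.6% of the DMSO level, which on a linear scale is a deeper loss than that of KLK4. The median over the 4 was -1.75, and over all tested genes 0.005.

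EPZ against DMSO addresses inhibition of EZH2. All 4 tested members rose, where 23.4% of all tested genes were called higher, 32.4% lower and 55.8% either way. KLK2 averaged 304 ± 6.15 FPKM in EPZ and 76.1 ± 5.76 FPKM in DMSO, a 3.99-fold higher level and a change of 1.99 (SE 0.0705, adjusted p = 9.17e-08). KLK3 averaged 2801 ± 1.50 FPKM in EPZ and 996 ± 26.3 FPKM in DMSO, 2.81-fold higher, a change of 1.49 (SE 0.0473, adjusted p = 5.41e-08). KLK2 and KLK3 ranked 43 and 79 from the highest change. KLK4 was 1.69-fold higher, a change of 0.75 (SE 0.0533, adjusted p = 4.84e-06), and ranked 471. KLK15 was 1.59-fold higher, a change of 0.55 (SE 0.144, adjusted p = 0.00985), and ranked 935. The KLK15 call was lost without the second EPZ library (0.44, adjusted p = 0.0755) and without an expression filter (adjusted p = 0.0543). The median over the 4 was 1.12, and over all tested genes -0.05.

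Combination against DMSO addresses both agents together. All 4 tested members fell, where 47.4% of all tested genes were called lower, 33.3% higher and 80.8% either way. KLK2 averaged 28.3 ± 1.70 FPKM in Combination and 76.1 ± 5.76 FPKM in DMSO, a change of -1.39 (SE 0.0705, adjusted p = 4.76e-08). KLK3 averaged 392 ± 12.2 FPKM in Combination and 996 ± 26.3 FPKM in DMSO, a change of -1.35 (SE 0.0473, adjusted p = 4.45e-09). In Combination KLK2 and KLK3 were at 37.2% and 39.3% of their DMSO levels, while with ENZ alone they were at 8.17% and 22.5%. KLK4 averaged 46.5 ± 0.708 FPKM in Combination and 78.2 ± 3.01 FPKM in DMSO, a change of -0.74 (SE 0.0533, adjusted p = 6.07e-07). KLK15 averaged 1.25 ± 0.539 FPKM in Combination and 3.62 ± 0.0628 FPKM in DMSO, a change of -1.06 (SE 0.144, adjusted p = 7.14e-05). The median over the 4 was -1.20, and over all tested genes -0.15. Quantile normalization ended the KLK4 call (-0.11, adjusted p = 0.0883) and left KLK3 at -0.51 and KLK2 at -0.83.

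Combination against ENZ addresses what adding EPZ6438 to ENZ did. KLK2, KLK3 and KLK4 rose, and KLK15 did not pass, where 25.3% of all tested genes were called higher, 45.5% lower and 70.8% either way. KLK2 averaged 28.3 ± 1.70 FPKM in Combination and 6.21 ± 0.342 FPKM in ENZ, 4.56-fold higher, a change of 2.02 (SE 0.0705, adjusted p = 1.02e-08) and rank 51 from the highest. KLK3 was 1.75-fold higher in Combination, a change of 0.80 (SE 0.0473, adjusted p = 3.18e-07) and rank 721. KLK4 was 1.54-fold higher, a change of 0.61 (SE 0.0533, adjusted p = 4.98e-06). KLK15 changed by 0.23 (95% interval -0.09 to 0.56, adjusted p = 0.177). Its 2 Combination libraries lay apart, and the change was 0.48 (adjusted p = 0.00591) without the first and -0.02 (adjusted p = 0.916) without the second. Quantile normalization gave 1.26 for KLK3 and 1.03 for KLK4. The median over the 4 was 0.71, and over all tested genes -0.15.

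Combination against EPZ addresses what adding ENZ to EPZ6438 did. All 4 tested members fell, where 43.7% of all tested genes were called lower, 29.2% higher and 72.8% either way. KLK2 averaged 28.3 ± 1.70 FPKM in Combination and 304 ± 6.15 FPKM in EPZ, 10.7-fold lower, a change of -3.38 (SE 0.0705, adjusted p = 7.77e-10) and rank 8 from the lowest. KLK3 averaged 392 ± 12.2 FPKM in Combination and 2801 ± 1.50 FPKM in EPZ, 7.15-fold lower, a change of -2.84 (SE 0.0473, adjusted p = 3.58e-10) and rank 20. KLK4 changed by -1.49 (SE 0.0533, adjusted p = 1.28e-08), or -0.96 after quantile normalization, and KLK15 by -1.60 (SE 0.144, adjusted p = 5.1e-06). The median over the 4 was -2.22, and over all tested genes -0.11. Between the single agents, EPZ against ENZ, all 4 members were higher in EPZ, where 20.0% of all tested genes were called higher, 30.6% lower and 50.6% either way. KLK2 had the highest change of all 11874 genes there, at 5.40 (SE 0.0705, adjusted p = 4.39e-11), and KLK3, at 3.64 (SE 0.0473, adjusted p = 4.39e-11), ranked 15.

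**Figure D2:**
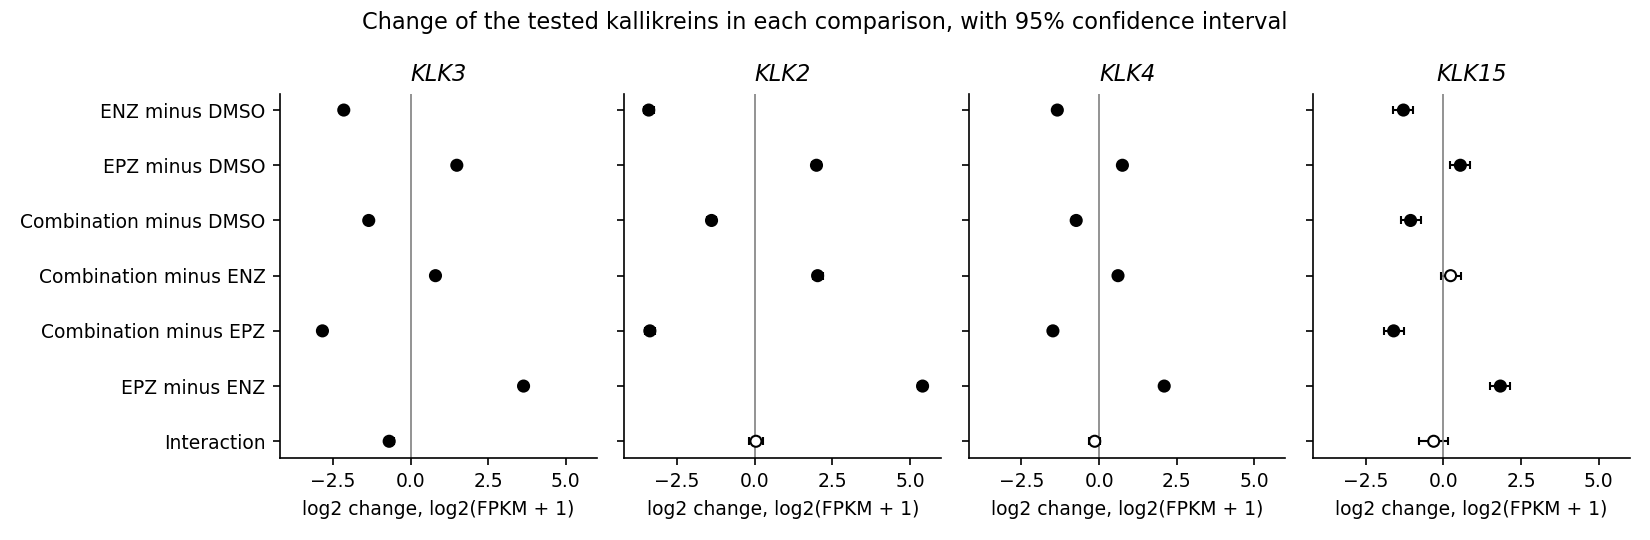
Change of KLK3, KLK2, KLK4 and KLK15 on the log2(FPKM + 1) scale (x axis) in each comparison (y axis), with bars for the 95% confidence interval from limma, which are often shorter than the points; filled points passed an adjusted p of 0.05. KLK2 spans the widest range, between -3.42 for ENZ minus DMSO and 5.40 for EPZ minus ENZ, and only KLK3 has a filled point for the interaction.

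The interaction term, which is Combination less ENZ less EPZ with DMSO added, asks whether the change with EPZ6438 in the presence of ENZ differs from that in its absence. Of the 4 tested members KLK3 passed and was lower, where 29.6% of all tested genes were called lower, 9.99% higher and 39.6% either way. The KLK3 change with EPZ6438 was 0.80 in the presence of ENZ and 1.49 in its absence, a difference of -0.69 (SE 0.0669, 95% interval -0.84 to -0.54, adjusted p = 5.55e-05). After quantile normalization it was -0.21 (adjusted p = 0.0139). For KLK2 the changes were 2.02 and 1.99 and the difference 0.04 (95% interval -0.19 to 0.26, adjusted p = 0.801). With a pseudocount of 0.1 it was 0.17 (adjusted p = 0.224), and after quantile normalization 0.31 (adjusted p = 0.0483). KLK4 had a difference of -0.14 (95% interval -0.31 to 0.03, adjusted p = 0.164), which turned to 0.18 after quantile normalization (adjusted p = 0.0832). KLK15 had -0.31 (95% interval -0.77 to 0.14, adjusted p = 0.253), or -0.56 (adjusted p = 0.0201) without the second Combination library. The median over the 4 was -0.23, and over all tested genes -0.12.

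Ratios of members within a library do not change when a library is scaled by 1 factor, but quantile normalization moves members by different amounts and changes them. The KLK3:KLK2 ratio of FPKM was 34.8 and 37.3 in ENZ, 9.35 and 9.09 in EPZ, 13.0 and 14.8 in Combination, and 13.6 and 12.7 in DMSO. It was highest in both ENZ libraries and lowest in both EPZ libraries, while the Combination and DMSO libraries overlapped. The means were 36.1 ± 1.79 in ENZ, 9.22 ± 0.182 in EPZ, 13.9 ± 1.26 in Combination and 13.1 ± 0.648 in DMSO. The KLK3:KLK4 ratio averaged 7.42 ± 0.174 in ENZ, 21.2 ± 0.0656 in EPZ, 8.42 ± 0.134 in Combination and 12.7 ± 0.154 in DMSO, with no overlap between groups. KLK2 was nearly level with KLK4 in DMSO, at a ratio of 0.972 ± 0.0363, but stood at 0.206 ± 0.00538 in ENZ, 2.30 ± 0.0524 in EPZ and 0.609 ± 0.0459 in Combination. The ratios are given as values, with no test.

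**Figure D3:**
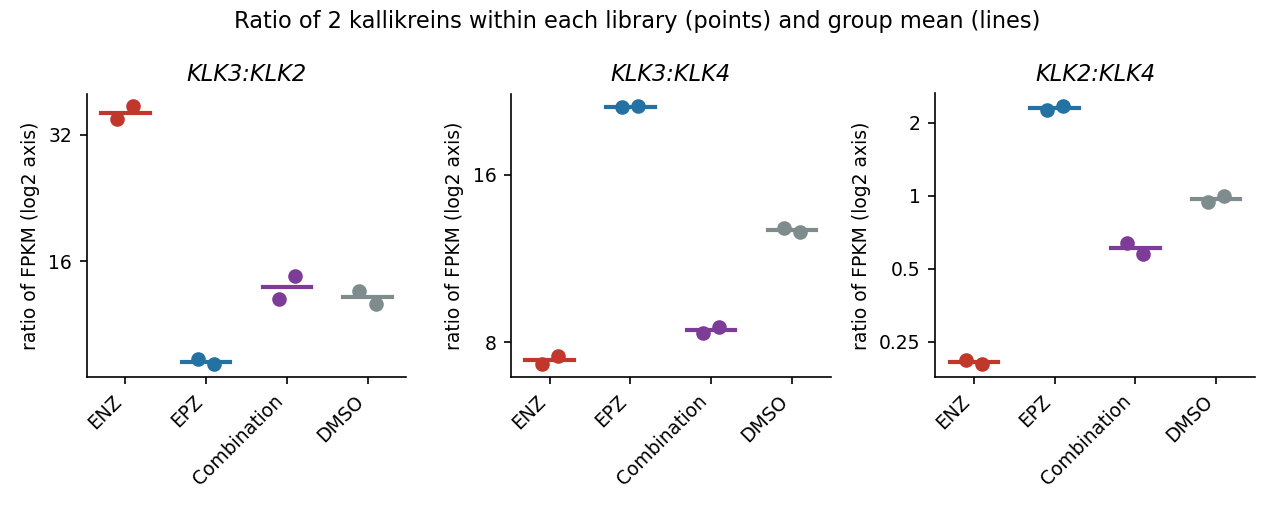
Ratio of the FPKM of 2 kallikreins within each library (points) and its group mean (lines), on log2 axes, for KLK3:KLK2, KLK3:KLK4 and KLK2:KLK4 in ENZ, EPZ, Combination and DMSO. The KLK3:KLK2 ratio is 36.1 in ENZ and 9.22 in EPZ, and its Combination and DMSO points overlap, while the KLK2:KLK4 ratio runs between 0.206 in ENZ and 2.30 in EPZ.

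KLK2 and KLK3 are close copies, so sharing of reads was checked on GENCODE release 29 transcripts. Of the 50-base stretches of KLK2, 0.159% also occur in KLK3, and of those of KLK3 0.215% also occur in KLK2. No other pair of members shared a stretch of that length. The sources used here do not say how the authors assigned reads that map to several genes, and a small part of either level could come from the other gene.

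On GRCh38.p14 the members lie on chromosome 19 in the order KLK1 (50819146 to 50823787), KLK15 (50825289 to 50833574), KLK3 (50854915 to 50860764), KLK2 (50873439 to 50880567) and KLK4 (50906351 to 50911395). They span 92.2 kb, and 12.7 kb separate KLK3 and KLK2. The pseudogene KLKP1 lies between KLK2 and KLK4. It stood at 0.876 and 0.979 FPKM in ENZ, 3.20 and 2.59 FPKM in EPZ, 1.84 and 1.74 FPKM in Combination, and 2.82 and 2.41 FPKM in DMSO. The EPZ and DMSO libraries of KLKP1 overlapped, and the ENZ libraries were lowest. It fell by 0.91 with ENZ against DMSO (adjusted p = 8.5e-05) and did not pass for EPZ against DMSO (0.11, adjusted p = 0.417).

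The kallikreins KLK5 to KLK14 follow KLK4 on the chromosome, and 1 of these 10, KLK12, had a mean of at least 1 FPKM. KLK12 stood at 0.0966 and 0.128 FPKM in ENZ, 3.81 and 3.25 FPKM in EPZ, 0.241 and 0.228 FPKM in Combination, and 0.362 and 0.229 FPKM in DMSO. The EPZ libraries stood far above the rest, on 178 fragments in EPZ against 11 in DMSO, a depth-corrected ratio of 12.4 (exact 95% interval 6.75 to 25.2). KLK12 rose with EPZ against DMSO by 1.81 (SE 0.110, adjusted p = 1.94e-06) and did not pass for ENZ against DMSO (-0.22, adjusted p = 0.116) or Combination against DMSO (-0.07, adjusted p = 0.581). After quantile normalization these were -0.36 (adjusted p = 0.0253) for ENZ and -0.36 (adjusted p = 0.0144) for Combination. Its mean passed the filter only because of the EPZ libraries, so its tests against EPZ are no independent support. For Combination against ENZ KLK12 did not pass (0.15, adjusted p = 0.245), on 9 fragments in Combination against 5 in ENZ, a ratio of 2.07 (exact 95% interval 0.624 to 7.88).

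KLK13 showed 36 fragments in the EPZ libraries and 0 in the Combination libraries, against 1 in the DMSO libraries. The ratio of EPZ to DMSO was 27.5 (exact 95% interval 4.63 to 1120). With the 0 fragments of Combination replaced by a floor of 3 over the group, KLK13 was 9.15-fold lower in Combination than in EPZ. That value takes the 36 fragments in EPZ as exact and is not a confidence limit. KLK14 showed 59 fragments in EPZ and 33 in Combination, against 14 in DMSO, with ratios to DMSO of 3.22 (1.78 to 6.25) for EPZ and 2.36 (1.23 to 4.78) for Combination. KLK13 and KLK14 were chosen after their values were seen, so their ratios are no independent support. The intervals cover counting error only. KLK5 to KLK11 were at or below 0.216 FPKM in every library, and KLK9 was listed at 0 throughout.

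Of 9 further neighbours of the locus 4 were tested, namely CLEC11A, C19orf48, KLKP1 and CTU1. With ENZ against DMSO 3 of them fell and none rose, where 28.8% of all tested genes were called lower and 27.9% higher. With EPZ against DMSO 1 rose and 1 fell (CTU1, a call lost after median-of-ratios scaling), where 23.4% of all tested genes were called higher and 32.4% lower. With Combination against DMSO 3 fell, where 47.4% of all tested genes were called lower and 33.3% higher. The KLKP1 call for Combination was lost after median-of-ratios scaling (-0.25, adjusted p = 0.0515). C19orf48 changed by -0.94 for ENZ, 0.08 (adjusted p = 0.361) for EPZ and -1.91 for Combination, each against DMSO.

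**Figure D4:**
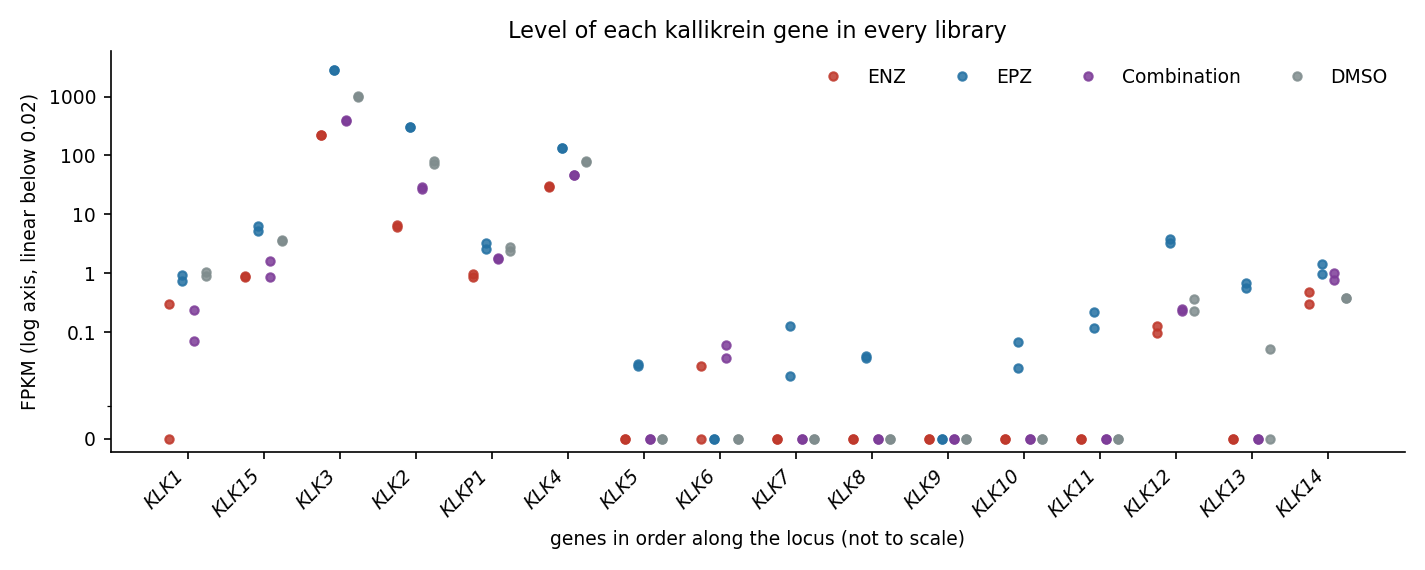
Level in FPKM (log axis, linear below 0.02) of every kallikrein gene and KLKP1 in each library, in order along the locus and not to scale, for ENZ, EPZ, Combination and DMSO. KLK3, KLK2 and KLK4 lie above 5.97 FPKM in every library, KLK5 to KLK11 at or below 0.216 FPKM, and KLK12 and KLK13 stand out in the EPZ libraries.

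Patterns over the 8 libraries were compared by Pearson's r of log2(FPKM + 1), as a description, among 3151 other genes whose group means span at least 1 on that scale. The genes most like KLK3 were ELL2, an elongation factor gene (0.9998), PGC, which encodes a pepsinogen (0.9985), NPPC, the C-type natriuretic peptide gene (0.9981), GREB1 (0.9978) and SASH1 (0.9962). ELL2 averaged 3.21 FPKM in ENZ, 39.9 in EPZ, 5.95 in Combination and 15.6 in DMSO. Among those most like KLK2 were PMEPA1, a regulator of TGF-beta signalling (0.9986), GRIN3A (0.9981), ANKH (0.9948) and KCNN2 (0.9934). Most like KLK4 were GRIN3A (0.9972), ELL2 (0.9967), SLC45A3, which encodes prostein (0.9964), ANKH (0.9963) and NPPC (0.9960). Most like KLK15 were PGLYRP2 (0.9908), RDH16 (0.9870), TRIM36 (0.9869), PTPRJ (0.9846) and TM4SF1 (0.9845). PGLYRP2 and RDH16, which averaged 2.70 and 2.59 FPKM in EPZ, passed the filter only through the EPZ libraries. Their likeness to KLK15 is therefore no independent support. Between members r was 0.9965 for KLK3 and KLK4, 0.9947 for KLK2 and KLK4, 0.9861 for KLK3 and KLK2, and 0.9404 to 0.9722 for pairs with KLK15. With 4 groups of 2 libraries, such values rest on 4 group means, and the genes share libraries and depth.

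Of 27 other androgen-induced genes 25 were tested. With ENZ against DMSO 23 fell and 1 rose (median -1.63), where 28.8% of all tested genes were called lower and 27.9% higher. Those that fell included PMEPA1 by -2.80, SLC45A3 by -3.44 and the protease gene TMPRSS2 by -2.14. With EPZ against DMSO 22 rose and 2 fell (median 0.73), where 23.4% of all tested genes were called higher and 32.4% lower. Those that rose included the stress-responsive gene NDRG1 by 3.09 and the metalloreductase gene STEAP4 by 2.52. TMPRSS2 and the cation channel gene TRPM8 rose by 2.08 each. STEAP4 averaged 7.77 FPKM in EPZ and 0.525 FPKM in DMSO. MAF, also on the list, averaged 0.0727 FPKM in ENZ, 9.24 in EPZ, 0.864 in Combination and 1.19 in DMSO. STEAP4 and MAF passed the filter only through the EPZ libraries, so their rises are no independent support. The counts and medians of the list include both. The changes of KLK2 and of KLK3 (-2.15 for ENZ and 1.49 for EPZ) were thus beyond the list's median for ENZ and for EPZ. Genes of the list went as far as KLK2 or further, SLC45A3 at -3.44 for ENZ and NDRG1 at 3.09 for EPZ. The KLK4 change was nearer 0 than the median for ENZ. The KLK15 change for ENZ was also nearer 0, but this scale understates it. KLK15 stood at 24.6% of its DMSO level. Its lowest change among the alternative settings was -1.91, but the list's median is not given for that setting. The scale also understates changes of low genes of the list, so KLK15 cannot be placed against the list here. With Combination against DMSO 19 fell and 2 rose (median -1.06), where 47.4% of all tested genes were called lower and 33.3% higher. The counts were 17 and 3 after median-of-ratios scaling and 19 and 5 (median -0.64) after quantile normalization. Those that fell included the co-chaperone gene FKBP5 by -3.33, CENPN by -2.41, GNMT by -2.10 and ACSL3 by -1.86. For Combination against ENZ 15 rose and 6 fell, where 25.3% of all tested genes were called higher and 45.5% lower. The counts were 18 and 3 after median-of-ratios scaling and 17 and 4 after quantile normalization. In the interaction 16 were lower and 4 higher (median -0.42), where 29.6% of all tested genes were called lower and 9.99% higher. The counts were 14 and 5 after median-of-ratios scaling and 14 and 6 after quantile normalization.

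**Figure D5:**
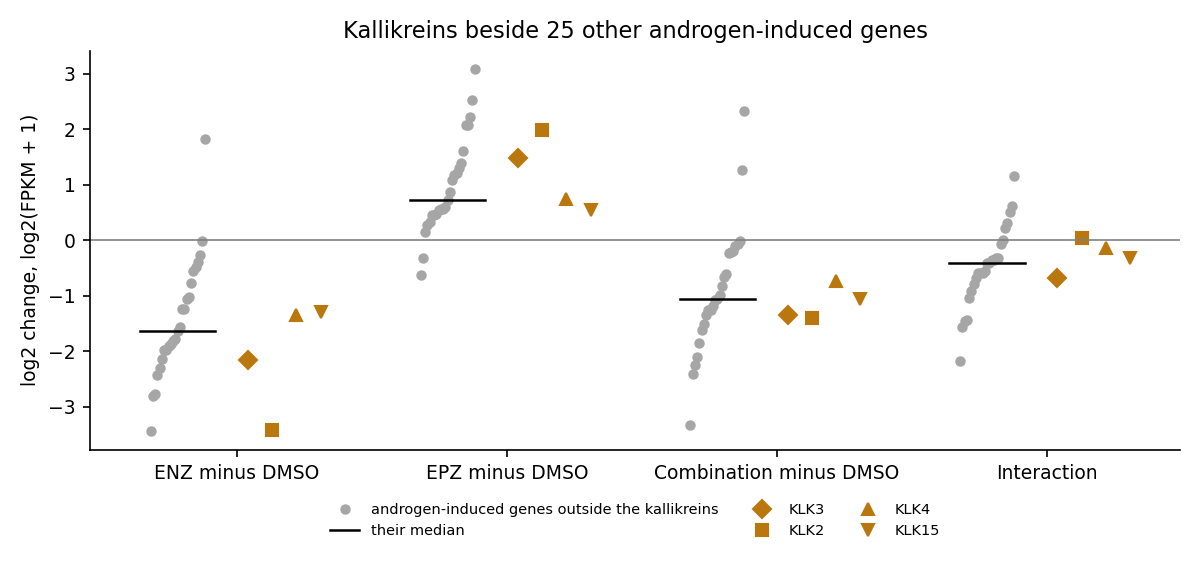
Change on the log2(FPKM + 1) scale (y axis) of 25 androgen-induced genes outside the kallikreins (grey points, with their median as a line) beside KLK3, KLK2, KLK4 and KLK15 (brown symbols), for ENZ, EPZ and Combination minus DMSO and for the interaction. KLK2 and KLK3 lie beyond the list's median of -1.63 for ENZ and of 0.73 for EPZ. For the interaction KLK2 lies at 0.04 and KLK3 at -0.69, where the median is -0.42.

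Of 11 genes for cofactors of androgen-driven transcription, 6 rose and 3 fell with ENZ, 3 rose and 5 fell with EPZ, and 6 rose and 5 fell with Combination, each against DMSO, where 56.7%, 55.8% and 80.8% of all tested genes were called either way. For EPZ the counts were 4 higher and 4 lower after median-of-ratios scaling and 4 and 3 after quantile normalization. The changes below are given for ENZ, EPZ and Combination against DMSO in that order. The coactivator genes NCOA3 (0.88, 0.40 and 1.45), NCOA2 (0.70, 0.22 and 1.11) and the pioneer factor gene GATA2 (0.44, 0.22 and 1.46) rose in each, with the highest value in Combination and the lowest in EPZ. NCOA1 (-0.68, -0.76 and -0.68) and the demethylase gene KDM1A (-0.38, -0.57 and -1.13) fell in each. EZH2, whose enzyme EPZ6438 inhibits, changed by -0.71 with EPZ and -1.86 with Combination and did not pass with ENZ (-0.05, adjusted p = 0.543, and 0.05 after quantile normalization).

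Of 8 genes for inhibitors that bind kallikreins 3 were tested. The membrane-bound inhibitor genes SPINT1 and SPINT2 rose in all comparisons with DMSO, SPINT1 by 0.46 with ENZ, 0.27 with EPZ and 0.78 with Combination, and SPINT2 by 0.39, 0.19 and 0.43. SERPINB6 rose by 0.16 with ENZ, or by 0.14 without passing after median-of-ratios scaling (adjusted p = 0.0554), rose by 0.15 with EPZ and fell by 0.45 with Combination, a call lost after quantile normalization (-0.05, adjusted p = 0.413). Of 8 kallikrein substrate genes 4 were tested. Of these 2 rose with ENZ, 3 rose and 1 fell with EPZ, and 3 rose and 1 fell with Combination. In the same comparisons with DMSO, 27.9%, 23.4% and 33.3% of all tested genes were called higher and 28.8%, 32.4% and 47.4% lower. IGFBP3, whose protein binds insulin-like growth factors and is cut by KLK3, rose by 2.34 with ENZ, 3.93 with EPZ and 8.98 with Combination. FN1, fibronectin, rose by 1.41, 1.74 and 2.23. SEMG2, which encodes a semenogelin, rose by 2.41 with EPZ and 0.44 with Combination and did not pass with ENZ (0.07, adjusted p = 0.592). It averaged 4.31 FPKM in EPZ, 0.360 in Combination and 0 in DMSO and passed the filter only through the EPZ libraries. F2RL1, a receptor cut by trypsin-like proteases, fell by 0.23 with EPZ and 0.47 with Combination and did not pass with ENZ (-0.08, adjusted p = 0.315).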

How the data were processed

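RNA of C4-2B cells was sequenced in 8 libraries, 2 in each of 4 groups taken from the sample titles. The authors deposited FPKM values per gene symbol. The submitters' processing notes name STAR and hg38 with no version. The sources used here do not give the counting tool, the annotation or a strand setting. Of 26475 rows, 26443 carry values.

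Fragments were recovered because FPKM of 1 gene are whole multiples of 1 fragment's value after correction for depth. Of 4725 low genes checked, 95.7% came out whole within 0.03. Absolute depth was set by 668 single-transcript genes, 57.8% of them within 5% of the median, which makes depths estimates. Ratios of fragments have exact conditional binomial 95% intervals.

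FPKM were used as log2(FPKM + 1), for the 11874 genes whose mean reached 1 FPKM, and fitted with limma 3.58.1 (R 4.3.3; 4 group means, moderated two-sided test with an expression trend, with 5.47 prior degrees of freedom and 4 residual). Benjamini-Hochberg adjustment ran over all tested genes in each of 7 comparisons, at 0.05. The fit was tested on simulated data. Other steps used Python 3.11.15, pandas 2.3.3, numpy 2.4.6, scipy 1.17.1 and matplotlib 3.10.9. Promoters and coordinates came from RefSeq (GRCh38.p14).

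The 5 members are named throughout. Other kallikreins and neighbours are given by counts, with values for those tested and for KLK13, KLK14 and LOC105372441, which were chosen after their values were seen. For each tested member the 5 genes most alike are named, and from each list up to 4 genes by smallest p against DMSO. Certain genes taken by this rule are not reported here. Members and lists were chosen with earlier results of these data known. Alternatives were a pseudocount of 0.1, no filter or one at 5 FPKM, scaling by median of ratios or by quantiles, only the compared groups, the replicate number as a block, and each library left out. Scaling checks of lists and all alternatives for KLK12 and KLKP1 were added after seeing the data.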

Additional observations from a re-analysis of the deposited data

Results flagged for a closer look

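For 3 kallikrein genes the change with EPZ6438 differed between cells with ENZ and cells without it, by limma's test of the interaction. In this test 39.6% of all tested genes were called either way, so 3 of the 6 kallikrein genes tested, or 1 of the 4 members, is near the background. KLK3 had a difference of -0.69 (adjusted p = 5.55e-05), with a change of 0.80 in the presence of ENZ and 1.49 in its absence. KLK12 had a difference of -1.66 (SE 0.155, adjusted p = 4.56e-05), with changes of 0.15 and 1.81, on 5 to 178 fragments a group. KLK12 passed the expression filter only through the EPZ libraries, so this difference is no independent support. KLKP1 had a difference of 0.43 (adjusted p = 0.0441), with changes of 0.53 and 0.11, the opposite direction. The KLK12 difference was -1.75 to -1.57 with 1 library left out, and that of KLKP1 was 0.31 to 0.54. The KLKP1 call was lost when any of 6 of the 8 libraries was left out, with an adjusted p of up to 0.176, without a filter (adjusted p = 0.098) and after quantile normalization (adjusted p = 0.0957).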

How the results depend on the processing

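Of 409 alternative values for changes of the 4 tested members, 398 kept their direction and side of the threshold. KLK15 for EPZ against DMSO did not pass without a filter (0.55, adjusted p = 0.0543), and was 0.44 to 0.65 with 1 library left out. KLK4 for Combination against DMSO did not pass after quantile normalization (-0.11). With 1 library left out, KLK15 for Combination against ENZ was -0.02 to 0.48, the KLK15 interaction -0.56 to -0.0674 and the KLK2 interaction -0.0403 to 0.11; without the second DMSO, second ENZ or first Combination library the KLK2 value was -0.0403, -0.0123 or -0.0231. After quantile normalization the KLK2 interaction passed at 0.31 and the KLK4 interaction turned to 0.18. The number of members past the threshold in the interaction was 1, or 2 after quantile normalization, and 1 to 2 with 1 library left out. KLKP1 for EPZ against DMSO was -0.0092 to 0.22 with 1 library left out, -0.0092 without the first EPZ library. The cause of these differences was not tested.

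Genes called higher in the interaction numbered 1186, against 1958 after median-of-ratios scaling, 2366 after quantile normalization, 711 at a mean of at least 5 FPKM and 777 without the second EPZ library. With the filter at 5 FPKM those called higher were 1980 for ENZ, 1819 for EPZ and 2147 for Combination against DMSO, 1676 for Combination against ENZ and 1857 against EPZ. Without a filter the Combination comparisons gave 6633, 4956 and 5480. A filter at 5 FPKM tests fewer genes and no filter tests more, so these counts do not share the base of 11874 genes. Same-numbered libraries deviated together at r = -0.0153 to 0.109 over 11874 genes. With 2 libraries a group such values cannot show whether same-numbered libraries shared a culture or a batch. With the replicate number as a block no call of a member changed, the KLK3 interaction being -0.69 (adjusted p = 0.000189). With the block 6914 genes were called for ENZ, 6783 for EPZ and 9657 for Combination against DMSO. Without it the counts were 6733, 6623 and 9591. Fits with only the compared groups were not run for the interaction, and KLK15 has no value at a mean of at least 5 FPKM. Depth limits KLK15 and KLK1, which rest on 0 to 182 fragments a library.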
